A study of Mus musculus with 13 samples.

Results

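The genes described here encode the proteins of the cytosolic ribosome, followed through single cells of the mouse small intestine. Members were chosen by symbol: Rpl or Rps followed by a digit, or Rplp followed by a digit, leaving out 6 symbols that contain -ps, a mark of pseudogenes, and the 10 symbols of the Rps6k kinases. The rule found 85 of the 16204 genes in the files, 52 with large-subunit symbols and 33 with small-subunit symbols, and 82 of them stood in the file of every library. It follows spelling, so it kept Rps19bp1, which encodes a protein that binds Rps19, and Rps4y2, which RefSeq gives as a synonym of the transcribed pseudogene Rps4l. It leaves out ribosomal proteins with other symbols, such as Rpsa and Fau, which are given near the end.

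All mice carried Lgr5-CreERT2 on C57Bl6/J and a Rosa26LSL-YFP reporter, in which Cre made in Lgr5-expressing crypt base cells switches on YFP in those cells and in all their descendants. Cells were sorted and sequenced by CEL-seq, which amplifies the 3′ ends of messenger RNAs and counts molecules by random barcodes. There were 3 libraries of CD24+ traced (YFP+) cells at 8 weeks, 1 library of traced cells at 8 weeks with no CD24 fraction named, 1 library of CD24+ traced cells at 3 weeks, 5 libraries of traced cells at 5 days, and, as non-traced CD24+ controls, 2 libraries at 8 weeks and 1 at 3 weeks. CD24 is a surface protein used to enrich secretory cells, so the CD24+ libraries hold a selected part of the epithelium. The library labelled as the 3-week non-traced control is identical to a set that the combined deposited table names as YFP without CD24, so the library labelled 3-week non-traced enters the comparisons between classes and the averages by class, and no comparison between groups. The labels give no age and do not say how many mice stand behind a library, so p-values measure the spread between these libraries, which may be technical.

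Each library held 96 well barcodes, the same in every file, and 892 of 1248 cells had at least 3000 transcripts without spike-ins and were kept. Libraries kept 50 to 87 cells, with library medians of 5412 to 14458 transcripts per cell, and 421675 to 1385266 transcripts in all. Cells were grouped with the members left out, and groups were named from marker lists as stem-like, proliferating-like, goblet-like, Paneth-like, tuft-like, enteroendocrine-like or enterocyte-like. Npm1 and Ncl, which act in ribosome assembly, were among the 10 leading genes of 1 of the stem-like clusters, so the level of such genes bore on which cells were called stem-like. That cluster, number 4, held 70 of the 76 5-day stem-like cells and none of any other group. All stem-like cells of the other libraries lay in cluster 3. Gm6402 was among the leading genes of cluster 4 and Gm6525 among those of cluster 3, both pseudogenes in RefSeq. Their part in which cells were called stem-like was not tested. Slc12a2 was the 1 stem marker among the leading genes of either cluster, and the stem markers raised numbered 6 in cluster 4 and 10 in cluster 3. A cluster of 42 cells, 97.6% of them from 5-day replicate 4, and a cluster of 18 cells stayed unnamed.

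A ribosome has a small subunit, which reads the messenger RNA, and a large subunit, which joins the amino acids, and each subunit holds 1 copy of most of its proteins. The messenger RNAs of these proteins begin with a run of C and T bases, the 5′ terminal oligopyrimidine tract, through which mTOR signalling and the RNA-binding protein Larp1 set their translation. In the crypt, stem cells and their dividing daughters make new cells, while Paneth cells secrete defensins and lysozyme, goblet cells secrete mucus, enteroendocrine cells secrete hormones, tuft cells sense luminal signals and enterocytes absorb nutrients.

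RefSeq promoter windows (GRCm38.p6, 250 bases before to 50 after the annotated start) were found by symbol for 64 members, 76 windows in all. A run of at least 7 C or T bases on the gene's strand, touching the stretch from 5 bases before to 5 bases after the start, stood in 29 of 76 member windows (38.2%), against 4446 of 32851 windows of all genes (13.5%). The letters CCGGAA on either strand (TTCCGG on the other) stood in 35 member windows (46.1%), against 4894 of all windows (14.9%). Windows of 1 gene can overlap, and a match is a description of letters, not a binding site. The stretches from 60 bases before to 30 after the start are shown for 6 members on which the results below turn, picked after their values were seen: Rps2 and Rpl12 for tuft-like cells, Rps27l for Paneth-like cells, Rpl36al for goblet-like cells, and Rpl31 and Rplp2 for the libraries of 8 weeks and 5 days. Capitals mark the C or T run and the CCGGAA motif.
Rps2: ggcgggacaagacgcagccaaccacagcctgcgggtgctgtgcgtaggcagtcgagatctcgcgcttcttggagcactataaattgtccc
Rpl12: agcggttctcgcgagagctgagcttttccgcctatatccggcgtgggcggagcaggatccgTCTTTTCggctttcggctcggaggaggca
Rps27l: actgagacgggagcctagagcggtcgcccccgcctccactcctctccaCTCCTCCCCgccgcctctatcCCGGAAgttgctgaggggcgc
Rpl36al: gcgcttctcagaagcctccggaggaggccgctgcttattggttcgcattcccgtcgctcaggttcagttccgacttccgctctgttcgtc
Rpl31: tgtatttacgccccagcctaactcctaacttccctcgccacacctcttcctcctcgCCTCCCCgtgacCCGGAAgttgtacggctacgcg
Rplp2: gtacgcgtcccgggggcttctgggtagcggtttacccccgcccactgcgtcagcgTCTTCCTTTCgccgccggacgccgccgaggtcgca
These stretches lie at chr17:24720003-24720092 on the plus strand (Rps2), chr2:32961652-32961741 plus (Rpl12), chr9:66946026-66946115 plus (Rps27l, 1 of 2 annotated starts), chr12:69184038-69184127 minus (Rpl36al), chr1:39367791-39367880 plus (Rpl31) and chr7:141447591-141447680 plus (Rplp2). Rps2 and Rplp2 hold CCGGAA elsewhere in their 300-base windows, and Rpl36al holds neither feature.

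The members made up 17.04% of all transcripts in the kept cells, 1685479 transcripts, and 12.4% to 22.5% by library, lowest in replicate 1 of the 8-week non-traced CD24+ cells and highest in replicate 4 of the 5-day traced cells. Rpl41, which encodes a very short protein of the large subunit, had 3.13% of the members' transcripts, followed by Rps12 (2.92%), Rps3a1 (2.45%), Rplp1 (2.29%) and Rpl27a (2.16%). At the other end, Rpl3l had transcripts in 1 cell, Rpl39l in 2 cells and Rpl10l in 10 cells, and these are copies of Rpl3, Rpl39 and Rpl10. Rps27 was seen in 68 cells, Rpl26 in 90, Rpl30 in 182 and Rpl34 in 532. Ribosomal protein genes have many processed pseudogenes and near-identical copies that can share or take their reads, so the level of each member is uncertain in that respect; the symbols with -ps held 0.240% to 0.702% of transcripts by library.

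The share of transcripts from the members differed by cell class. With all genes in the total it was lowest in Paneth-like cells, a rank that did not hold once the Paneth marker genes were left out, as given further on. Over the libraries that held at least 3 cells of a class, members made up 9.16% ± 2.69 of the transcripts of Paneth-like cells (SD, 9 libraries, 79 cells), 11.2% ± 2.49 of enteroendocrine-like cells (7 libraries, 101 cells), 12.3% ± 0.484 of tuft-like cells (7 libraries, 137 cells) and 12.5% ± 2.69 of enterocyte-like cells (6 libraries, 48 cells). The share was 17.8% ± 1.54 in goblet-like cells (10 libraries, 89 cells), 21.6% ± 1.86 in proliferating-like cells (11 libraries, 206 cells) and 24.7% ± 2.58 in stem-like cells (10 libraries, 145 cells). The 4 lowest classes lie within the spread of their neighbours in this order, while each of them lies below goblet-like cells by more than the SD of either class.

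**Figure D1:**
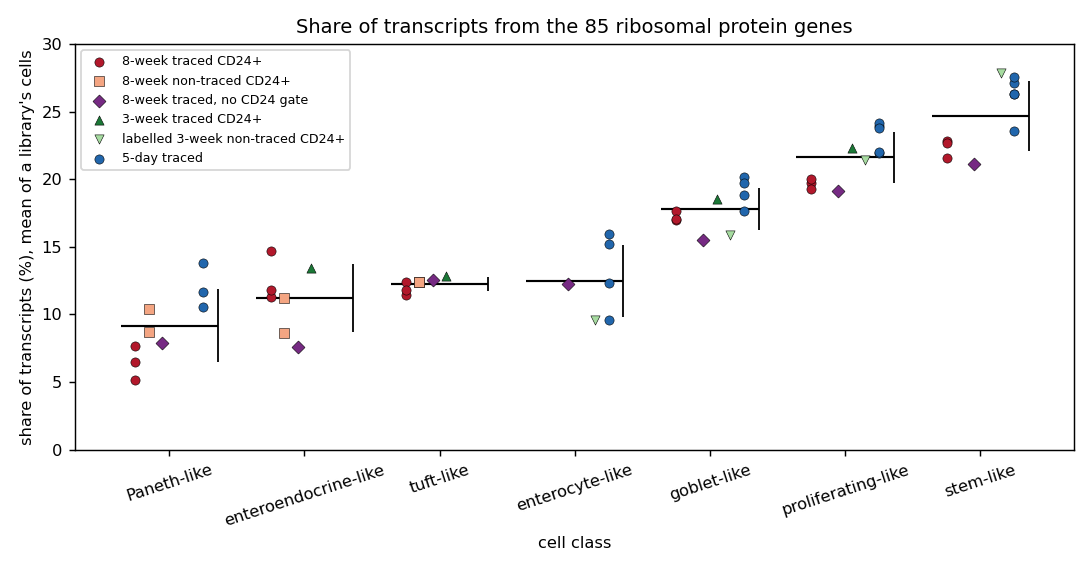
Share of transcripts from the ribosomal protein genes (percent, y axis) by cell class (x axis); points are libraries by group and bars are the mean ± SD over libraries. Paneth-like libraries average 9.16% and stem-like libraries 24.7%.

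Within a library, the share was lower than in stem-like cells for each of the 6 other classes, in every library that held both. The share averaged 9.04% in Paneth-like cells, against 23.5% in stem-like cells of the same 7 libraries, a difference of -14.5 percentage points (SD of the difference 2.14). The differences were -12.9 points for enterocyte-like cells (SD 4.23, 6 libraries), -10.7 for enteroendocrine-like cells (SD 2.22, 4 libraries) and -10.0 for tuft-like cells (SD 1.36, 4 libraries). Goblet-like cells differed by -6.67 points (SD 2.18, 9 libraries) and proliferating-like cells by -3.15 points (SD 1.36, 10 libraries). These shares are a description, with no test.

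A share depends on what else a cell contains. The 23 Paneth marker genes, among them the defensins and lysozyme, summed to 3102 to 4792 per 10000 transcripts in Paneth-like cells, against 2.75 to 72.1 in stem-like cells. With those genes left out of the total, the members' share in Paneth-like cells was 13.99% ± 3.94 (9 libraries). That lies above enteroendocrine-like (11.3%), tuft-like (12.3%) and enterocyte-like cells (12.5%) on the same total, and the 4 classes lie within one another's spread. The difference from stem-like cells was then -9.33 points in Paneth-like cells, smaller than the -12.95, -10.8 and -10.1 points of enterocyte-like, enteroendocrine-like and tuft-like cells. Markers of the other classes stayed in that total. They summed to 112 to 410 per 10000 in enterocyte-like, 308 to 1399 in enteroendocrine-like and 109 to 147 in tuft-like cells, each for its own list. Their part in this order was not tested. In transcripts per cell, the library medians were 1162 in Paneth-like cells, against 2000 in stem-like cells, with ratios of 0.251 to 1.22 over 7 libraries, so the order of the classes was not the same in every library on this scale. The median ratio was 0.245 for enteroendocrine-like cells (561 against 2642 transcripts, ratios 0.196 to 0.334) and 0.279 for tuft-like cells (767 against 2642, ratios 0.226 to 0.383). It was 0.592 for enterocyte-like cells (735 against 1539, ratios 0.344 to 1.19), 0.81 for goblet-like cells (1793 against 1952, ratios 0.486 to 2.36) and 1.21 for proliferating-like cells (2278 against 1768, ratios 0.707 to 2.03), so for these 3 classes the direction changed between libraries; among cells of at least 5000 transcripts the median ratio was 0.229 for enterocyte-like cells. Per spike-in (ERCC) transcript, the members in Paneth-like cells were 1.09 to 2.09 times those in stem-like cells of 3 5-day libraries, but 0.232 to 0.613 times in the 3 8-week traced CD24+ libraries and 0.515 times in the 8-week library with no CD24 fraction named. On that measure goblet-like cells had 0.505 to 2.21 times (9 libraries), enterocyte-like cells 0.465 to 1.08 times (6) and proliferating-like cells 0.697 to 1.75 times (10) the members of stem-like cells, so the direction again changed between libraries. Tuft-like cells had 0.175 to 0.348 and enteroendocrine-like cells 0.207 to 0.400 times, below stem-like cells in 4 of 4 libraries each. The amount of spike-in added per well is not given in the sources used here, the stem-like cells of the 5-day and the later libraries lay mostly in different clusters, and the part of either in these ratios was not tested. The median transcripts per cell were 16935 in Paneth-like, 6457 in enteroendocrine-like and 6987 in stem-like cells.

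Gene by gene, counts were summed per library and class. Each class was tested against stem-like cells by edgeR's quasi-likelihood test, in 1 fit over all classes with library as a block. The fit covered 2057 genes, 76 of them members. An adjusted p (Benjamini-Hochberg) under 0.05 is called a change, and CPM is counts per 1000000 of the summed counts. The log2 changes use TMM factors, which set the bulk of genes to no change, so a member can have fewer CPM in a class and yet a log2 change near 0 where a few genes fill the library. The 9 members too low to test were Rps4y2, Rpl30, Rpl7l1, Rpl39l, Rps19bp1, Rps27, Rpl10l, Rpl3l and Rpl26. All 6 comparisons share the stem-like sums. Markers of proliferation (16 genes) moved with several of them: they summed to 5.53 to 27.97 per 10000 in Paneth-like, 10.3 to 66.8 in goblet-like, 9.36 to 14.5 in tuft-like, 6.23 to 40.2 in enteroendocrine-like, 3.61 to 25.6 in enterocyte-like, 65.1 to 102 in proliferating-like and 27.8 to 46.5 in stem-like cells. Their part in the results was not tested.

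In Paneth-like cells, 57 of the 76 members fell and 1, Rps27l, passed the test upward, while 38.3% of all genes tested passed in either direction, 20.1% as higher and 18.2% as lower. The median log2 change was -0.41 over the members and -0.10 over all genes. The count differed between sets of libraries: the 8-week CD24+ libraries alone gave 37 members lower and 1 higher (27.7% of all genes tested passing, members' median -0.52), while the 5-day libraries alone gave 0 called members (6.52% of all genes passing, members' median -0.02). Large-subunit and small-subunit members had the same median, -0.41. Rps13, a small-subunit protein, had 405, 619 and 1419 CPM as its lowest, median and highest values in Paneth-like cells of 7 libraries, against 2088, 2354 and 2783 CPM in stem-like cells. The ranges did not overlap, and the log2 change was -0.70 ± 0.14 (SE; adjusted p = 2.79e-05). Rpl28 had 281, 575 and 1710 CPM in Paneth-like cells, against 1419, 1847 and 3599 CPM in stem-like cells. Those ranges overlapped, and the change was -0.69 ± 0.14 (adjusted p = 3.48e-05). Rpl14 had 449, 641 and 1674 CPM, against 2222, 2651 and 3314 CPM in stem-like cells (change -0.67 ± 0.13, adjusted p = 2.17e-05). Rplp1, part of the stalk of the large subunit that recruits elongation factors, had 832, 1459 and 3083 CPM, against 4251, 5568 and 6385 CPM (change -0.67 ± 0.14, adjusted p = 0.000125). For Rpl14 and Rplp1 every Paneth-like library lay below every stem-like one. Goblet markers summed to 90.7 to 492 per 10000 in these Paneth-like cells, against 1.89 to 17.1 in stem-like cells; their part was not tested.

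Rps27l, a copy of the small-subunit gene Rps27 known as a p53 target, stood apart in Paneth-like cells. It had 286, 437 and 604 CPM in Paneth-like cells, against 388, 516 and 614 CPM in stem-like cells, and it was the higher in 1 of 7 libraries. Its log2 change was 0.94 ± 0.16 with TMM (adjusted p = 1.19e-06) and -0.06 without TMM factors, so the direction depends on the scaling. Rpl41 had 2194, 3580 and 4966 CPM in Paneth-like cells, against 5399, 6586 and 8063 CPM in stem-like cells, with a change of 0.03 ± 0.12 (adjusted p = 0.839) that became -0.93 without TMM. Rpl10, a late-joining protein of the large subunit, had a change of 0.03 ± 0.12 with TMM (adjusted p = 0.858) and of -0.92 without. Without TMM the median of all genes moved to -1.05 and that of the members to -1.36, and 75 members were lower; relative to all genes the members' median was then -0.31, as it was with TMM. The count of members called also depends on the test, since DESeq2 with its own size factors called 18 lower and 4 higher, with 32.9% of all genes passing. By edgeR 30 and 36 members were called without 8-week traced CD24+ replicates 3 and 1 (28.1% and 31.8% of all genes passing), and 34 and 32 without 5-day replicates 3 and 5 (33.8% and 33.9%).

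In goblet-like cells, 62 members fell and 1 rose, where 30.7% of all genes tested passed the test, 16.9% as higher and 13.8% as lower. The median was -0.40 over members and -0.04 over all genes. Rps20 had 1973, 2647 and 3487 CPM in goblet-like cells of 9 libraries, against 3052, 4128 and 5960 CPM in stem-like cells (change -0.60 ± 0.12, adjusted p = 4.96e-05). Those ranges overlapped. Rpl36al, a near-identical copy of the large-subunit gene Rpl36a, was the member that rose. It had 735, 1001 and 1526 CPM in goblet-like cells, against 637, 698 and 1100 CPM in stem-like cells, was higher in 7 of 9 libraries, and changed by 0.41 ± 0.14 (adjusted p = 0.0155). Rps27l had 419, 570 and 751 CPM in goblet-like cells, against 367, 516 and 614 CPM in stem-like cells, and did not pass the test (0.13 ± 0.15, adjusted p = 0.613). Among cells with at least 5000 transcripts 27 members were called (26.7% of all genes passing), with no filter on low counts 6 (5.03%), and without 5-day replicates 3 and 5 39 and 38 (26% and 27.1%). The 5-day libraries alone gave 23 called members, with 11.9% of all genes passing, and the 8-week CD24+ libraries alone gave 5, with 11.8% of all genes passing.

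In tuft-like cells all 76 members tested fell, while 45.3% of all genes tested passed the test, 23.6% as higher and 21.7% as lower. The median was -0.83 over members and 0.03 over all genes. Tuft-like sums of 7 libraries entered the fit, and the CPM below are from the 4 that also held stem-like cells. Rps2, a protein of the small subunit near the entry of the messenger RNA, had 1469, 1356 and 1621 CPM in tuft-like cells of the 8-week traced CD24+ replicates 1, 2 and 3 and 2103 CPM in the 8-week traced library with no CD24 fraction named, against 4695, 4674, 4992 and 4394 CPM in stem-like cells of the same libraries. Every tuft-like library lay below every stem-like one, and the change was -1.60 ± 0.16 (adjusted p = 3.89e-13). Rpl12, a protein at the base of the stalk, had 894, 932, 1239 and 901 CPM in tuft-like cells, against 2971, 2912, 2670 and 2752 CPM in stem-like cells (-1.34 ± 0.16, adjusted p = 7.06e-11). Rps12 had 2408, 3389, 3146 and 3005 CPM, against 7100, 6398, 8023 and 6389 CPM in stem-like cells (-1.28 ± 0.14, adjusted p = 1.19e-11). The groups did not overlap for any of these 3 genes. Rpl36al (-0.57 ± 0.18, adjusted p = 0.00572), Rpl41 (-0.60 ± 0.13, adjusted p = 0.000124) and Rps27l (-0.62 ± 0.19, adjusted p = 0.00628) fell by less than the members' median. They were not the 3 members that changed least.

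In enteroendocrine-like cells 71 members fell and none rose, against 36.1% of all genes passing the test, 19.9% as higher and 16.1% as lower. The median was -0.75 over members and 0.04 over all genes. Rps19, a small-subunit protein mutated in Diamond-Blackfan anaemia, had 2628, 1223 and 1557 CPM in enteroendocrine-like cells of the 8-week traced CD24+ replicates and 627 CPM in the library with no CD24 fraction named, against 3927, 3621, 3693 and 2815 CPM in stem-like cells. All 4 libraries were lower, and the change was -1.15 ± 0.16 (adjusted p = 3.2e-08). Rpl12 had 1672, 1089, 1415 and 377 CPM, against 2971, 2912, 2670 and 2752 CPM in stem-like cells (-1.12 ± 0.16, adjusted p = 1.54e-08). Rpl39, which lines the exit tunnel of the large subunit, had 1835, 804, 1132 and 690 CPM, against 2273 to 2682 CPM in stem-like cells (-1.08 ± 0.16, adjusted p = 7.17e-08). In each of these genes the library with no CD24 fraction named was the lowest. The 5 members that missed the threshold were Rpl10 (-0.28 ± 0.14, adjusted p = 0.108), Rps27l (-0.40 ± 0.19, adjusted p = 0.0907), Rpl36al (-0.13 ± 0.17, adjusted p = 0.679), Rpl34 and Rpl18.

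In enterocyte-like cells 73 members fell and none rose, against 43.9% of all genes passing the test, 23.2% as higher and 20.7% as lower. DESeq2 also called 73 lower, with 46.7% of all genes passing. Here the members' median was the lowest of the 6 comparisons, -1.01, against 0.02 for all genes. Rps15a had 244, 357 and 628 CPM in enterocyte-like cells of 6 libraries, against 833, 1064 and 1284 CPM in stem-like cells (-1.37 ± 0.20, adjusted p = 3.59e-08). Rps19 had 1092, 1590 and 2172 CPM, against 2815, 4420 and 5410 CPM (-1.34 ± 0.17, adjusted p = 3.77e-10). Neither range overlapped. Rpl3, which helps form the site where amino acids are joined, had 590, 1442 and 2188 CPM in enterocyte-like cells, against 2089, 3385 and 4126 CPM in stem-like cells (-1.34 ± 0.16, adjusted p = 7.77e-11), and the highest enterocyte-like library passed the lowest stem-like one. Rpl34, Rpl36al and Rps27l missed the threshold. Rps27l had 438, 590 and 916 CPM in enterocyte-like cells, against 367, 558 and 614 CPM in stem-like cells, and was higher in 5 of 6 libraries (0.11 ± 0.18, adjusted p = 0.716).

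Proliferating-like cells were closest to stem-like cells. By edgeR 2 members fell and none rose, and 2.53% of all genes passed the test, 1.9% as higher and 0.632% as lower. An unadjusted p under 0.05 was seen for 45 members, and for 271 of all 2057 genes. The median log2 change was -0.24 over members and 0.00 over all genes. Rpl39 had 1366, 2001 and 3029 CPM in proliferating-like cells of 10 libraries, against 2273, 2832 and 4053 CPM in stem-like cells (-0.44 ± 0.12, adjusted p = 0.0204). Rpl37a had 2117, 2418 and 3893 CPM, against 2310, 3345 and 4755 CPM (-0.39 ± 0.10, adjusted p = 0.00955). The ranges overlapped across libraries, and within libraries both genes were lower in 10 of 10. DESeq2 called 10 members lower, with 3.6% of all genes passing, and neither gene was called without 5-day replicate 1, without 5-day replicate 2 or without 8-week traced CD24+ replicate 2 (1.73%, 2.48% and 1.9% of all genes passing, in that order). Only 1 member was called without 5-day replicate 4, either 3-week library, the 8-week library with no CD24 fraction named or 8-week traced CD24+ replicate 3. The share of all genes passing in those fits is not given here.

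**Figure D2:**
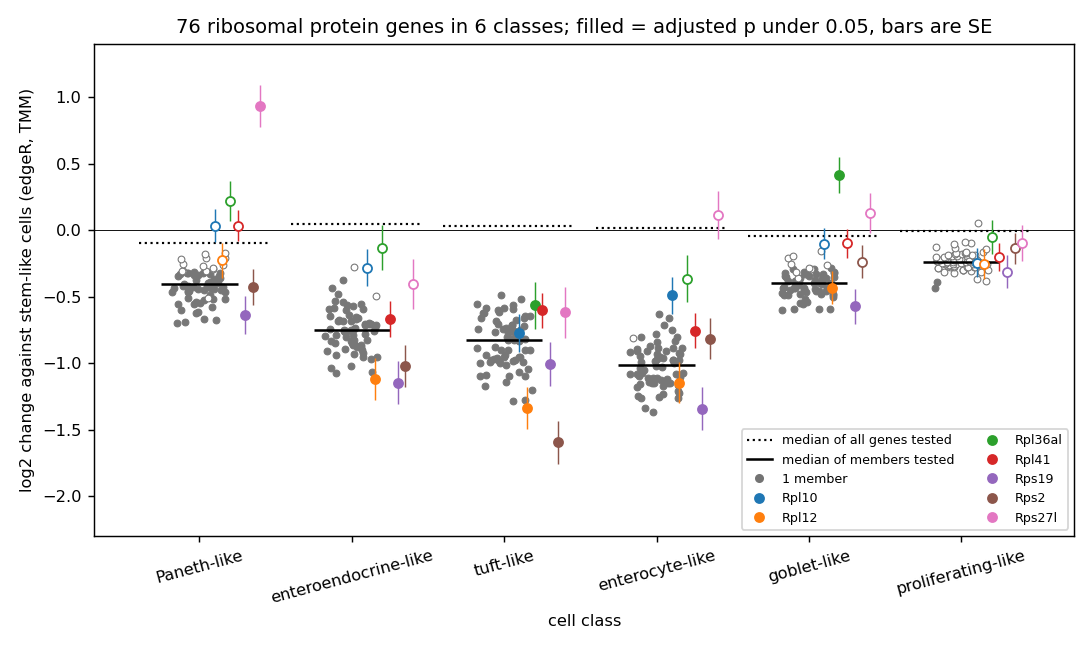
Log2 change against stem-like cells with TMM factors (y axis) of each member tested, by cell class (x axis); filled points have an adjusted p under 0.05, bars are SE for 7 named genes, and the dotted and solid lines are the medians of all genes and of the members. The members' medians lie between -1.01 in enterocyte-like and -0.24 in proliferating-like cells, and Rps27l lies at 0.94 in Paneth-like cells (-0.06 without TMM).

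To describe how members varied among themselves, the fits were repeated with the sum over the members as library size, so that a change of 0 means a change equal to that of the members together. On this scale 10 members were called in Paneth-like, 4 in goblet-like, 16 in tuft-like, 13 in enteroendocrine-like, 10 in enterocyte-like and 0 in proliferating-like cells, of 76 in each. Of all genes, 33.2% were called on the same scale in Paneth-like, 29.8% in goblet-like, 64.1% in tuft-like, 53.7% in enteroendocrine-like, 57.4% in enterocyte-like and 4.86% in proliferating-like cells; the scale itself centres the members near 0. Rpl36al was higher than the members together in Paneth-like (0.62), goblet-like (0.79), enteroendocrine-like (0.62) and enterocyte-like cells (0.62). Rps27l was higher in Paneth-like (1.36 ± 0.18, adjusted p = 4e-09), goblet-like (0.51) and enterocyte-like cells (1.11). Rpl10 was higher in Paneth-like (0.43), enteroendocrine-like (0.50) and enterocyte-like cells (0.49), and Rpl41 in Paneth-like (0.43), goblet-like (0.28) and tuft-like cells (0.25). Among those lower, Rps19 was lower in Paneth-like (-0.28), enteroendocrine-like (-0.43) and enterocyte-like cells (-0.36), and Rps2 and Rpl12 were lower in tuft-like (-0.74 and -0.49) and in enteroendocrine-like cells (-0.29 and -0.41). The called members divided into 4 higher and 6 lower in Paneth-like, 3 and 1 in goblet-like, 8 and 8 in tuft-like, 6 and 7 in enteroendocrine-like, and 6 and 4 in enterocyte-like cells.

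**Figure D3:**
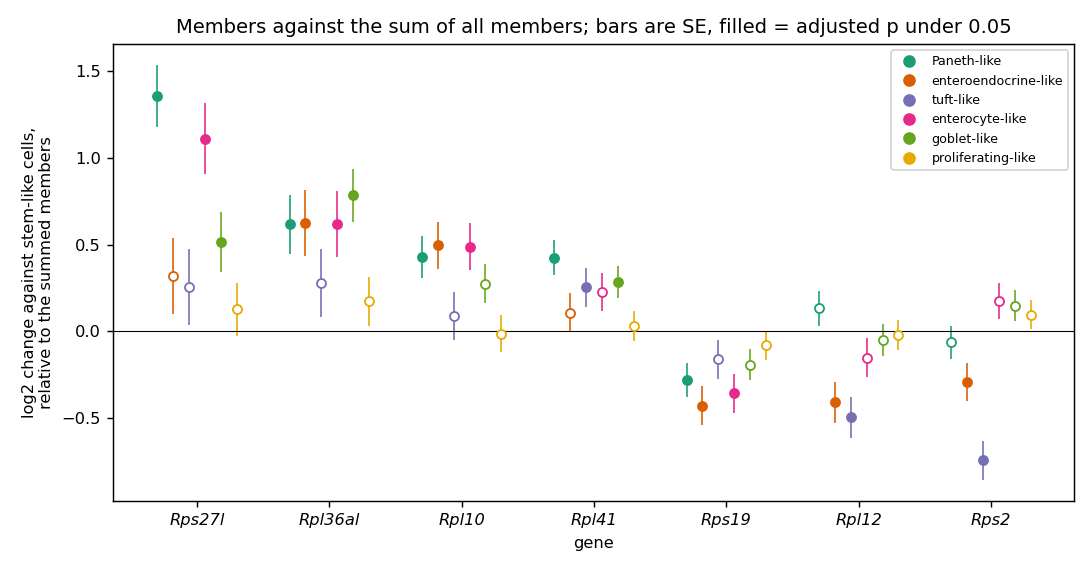
Log2 change against stem-like cells relative to the sum over the members (y axis) for 7 members in 6 cell classes (x axis), with SE; filled points have an adjusted p under 0.05. Rps27l reaches 1.36 in Paneth-like cells and Rps2 -0.74 in tuft-like cells.

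Copies of a member did not always change like their partner. With TMM, Rpl36a had log2 changes of -0.43 in Paneth-like, -0.54 in goblet-like, -0.94 in tuft-like, -1.07 in enteroendocrine-like and -1.26 in enterocyte-like cells. Rpl36al had changes of 0.22, 0.41, -0.57, -0.13 and -0.36 in the same order, higher than Rpl36a each time; the difference between the copies was not tested. Rpl22, known to repress its copy Rpl22l1, had a change of -1.28 in tuft-like cells, where Rpl22l1 changed by -1.10, and both fell. In Paneth-like cells Rpl22 fell by 0.62 and Rpl22l1 had -0.51, which missed the threshold (adjusted p = 0.0682). Rpl3l, Rpl10l, Rpl39l and Rpl7l1 were too low to compare with their partners.

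The second set of comparisons asked whether cells of 1 class differed between traced CD24+ cells at 8 weeks and traced cells at 5 days. Time since labelling, the CD24 gate and the sex of the mice differ together between these libraries and cannot be told apart, and the 5-day libraries are not in the combined deposited table. Xist, made from the inactive X chromosome, was 0.813 to 1.74 per 10000 transcripts and Ddx3y, on the Y chromosome, 0 in the later libraries, against 0 to 0.0134 and 0.197 to 0.424 in the 5-day libraries. The members' share in stem-like cells was 22.7%, 21.6% and 22.7% at 8 weeks (mean 22.4% ± 0.634, SD, n = 3), against 27.1%, 23.6%, 26.2%, 27.01% and 26.1% at 5 days (26% ± 1.43, n = 5). In proliferating-like cells it was 19.6%, 19.4% and 20.3% at 8 weeks (19.8% ± 0.466), against 23.8%, 21.96%, 22.1%, 24.4% and 23.9% at 5 days (23.2% ± 1.12). In Paneth-like cells it was 5.08%, 7.85% and 6.47% at 8 weeks (6.47% ± 1.38), against 11.7%, 13.6% and 10.8% in 5-day replicates 2, 3 and 5 (12.05% ± 1.44). The groups did not overlap in any of these 3 classes. The 8-week traced library with no CD24 fraction named had 21.1% in stem-like, 19.1% in proliferating-like and 7.92% in Paneth-like cells.

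**Figure D4:**
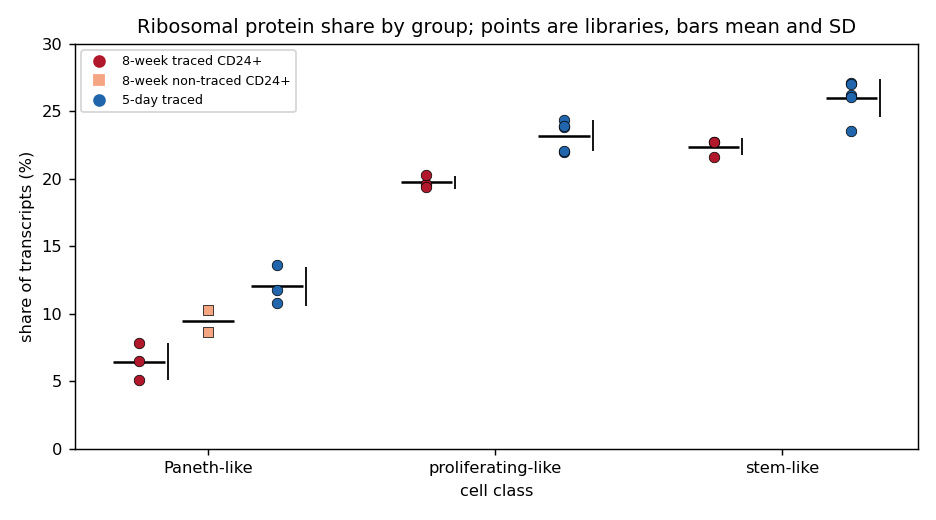
Share of transcripts from the ribosomal protein genes (percent, y axis) in Paneth-like, proliferating-like and stem-like cells (x axis), by group in colour; points are libraries, horizontal bars the mean and vertical bars the SD (groups of at least 3 libraries). In each class the 8-week traced CD24+ libraries lie below all 5-day libraries, 5.08% to 7.85% against 10.8% to 13.6% in Paneth-like cells.

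In stem-like cells, 29 of 77 members tested were lower at 8 weeks and none higher, where 14.4% of 2370 genes passed the test, 6.92% as higher and 7.47% as lower; without 8-week traced CD24+ replicate 2 the count was 14, with 7.98% of all genes passing. Different clusters held these cells: all 28 of the 8-week cells lay in cluster 3 and 70 of the 76 5-day cells in cluster 4, with median transcripts of 13792 and 5657 per cell. The cluster and the group cannot be told apart, since no 5-day library had more than 2 cells in cluster 3 and no fit within 1 cluster could be made. The median log2 change was -0.30 over members and 0.01 over all genes. Rpl31, a large-subunit protein near the exit of the tunnel, had 945, 731 and 657 CPM at 8 weeks, against 2510, 1969, 2308, 2663 and 1965 CPM at 5 days. Every 8-week library lay below every 5-day library, and the change was -1.62 ± 0.16 (adjusted p = 3.6e-07). Rpl28 had 1700.4, 1721 and 1441 CPM at 8 weeks, against 3606, 3263, 3645, 4454 and 2260 CPM at 5 days (-1.15 ± 0.16, adjusted p = 3.17e-05). Rpl37 had 1512, 1653 and 1272 CPM, against 2561, 2387, 2288, 2618 and 2860.0 CPM (-0.86 ± 0.13, adjusted p = 0.000115). Rps3a1, known for binding near the messenger RNA path of the small subunit, had 5580, 5393 and 6880 CPM at 8 weeks, against 4922, 5487, 5629, 5488 and 6451 CPM at 5 days, with a change of 0.02 ± 0.11 (adjusted p = 0.933). The stem markers summed to 25.2 to 29.03 per 10000 in these cells at 8 weeks, against 19.1 to 25.9 at 5 days, and enterocyte markers to 7.84 to 8.31, against 11.3 to 37.6; their part in the result was not tested.

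In proliferating-like cells, 32 of 80 members were lower at 8 weeks and none higher, where 15% of 5242 genes passed the test, 7.65% as higher and 7.33% as lower; DESeq2 called 20 (8.43% of all genes passing), and without 8-week traced CD24+ replicate 2 edgeR called 18 (8.52%). Here too the clusters differed: cluster 8 held 32 of 34 8-week cells, and clusters 2 and 12 held 85 and 38 of 124 5-day cells, and 1 cell of each group lay in a cluster of the other. No fit within 1 cluster could be made, so the cluster and the group cannot be told apart. Rpl31 had 796, 876 and 595 CPM at 8 weeks, against 2010.0, 1726, 1730.3, 2128 and 1986 CPM at 5 days (-1.39 ± 0.14, adjusted p = 5.41e-07). Rpl28 had 1386, 1689 and 1479 CPM at 8 weeks, against 3320, 2921, 2869, 3602 and 2132 CPM at 5 days (-1.05 ± 0.15, adjusted p = 4.6e-05). Neither gene overlapped between the groups. Rps4y2, the pseudogene named above, had 8.1, 34.1 and 51 CPM at 8 weeks, against 73.1, 69, 139.5, 36.3 and 124.5 CPM at 5 days (-2.20 ± 0.50, adjusted p = 0.00391), with overlap through 5-day replicate 4. Rps3a1 had a change of 0.20 ± 0.10 that missed the threshold (adjusted p = 0.163). Markers of proliferation summed to 86.9 to 101 per 10000 in these cells at 8 weeks, against 68.2 to 75.4 at 5 days.

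Rplp2, the partner of Rplp1 in the stalk, split the 5-day libraries. Over all kept cells it had 2.92, 2.87 and 2.94 per 10000 transcripts in the 8-week traced CD24+ libraries, against 12.3, 12.8, 11.95, 0.268 and 0.131 in 5-day replicates 1 to 5, and it was detected in 15 of 68 cells of replicate 4 and 7 of 60 cells of replicate 5. In stem-like cells it had 479, 519 and 488 CPM at 8 weeks, against 1424, 1690, 1458, 45.9 and 10.9 CPM at 5 days. The 8-week values thus lay between 2 sets of 5-day libraries, and the test gave -1.09 ± 0.57 (adjusted p = 0.218). In proliferating-like cells the 8-week values again lay between, with 412, 313 and 442 CPM at 8 weeks, against 1264, 1355, 1402, 18.1 and 12.5 CPM at 5 days (-1.18 ± 0.73, adjusted p = 0.305).

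**Figure D5:**
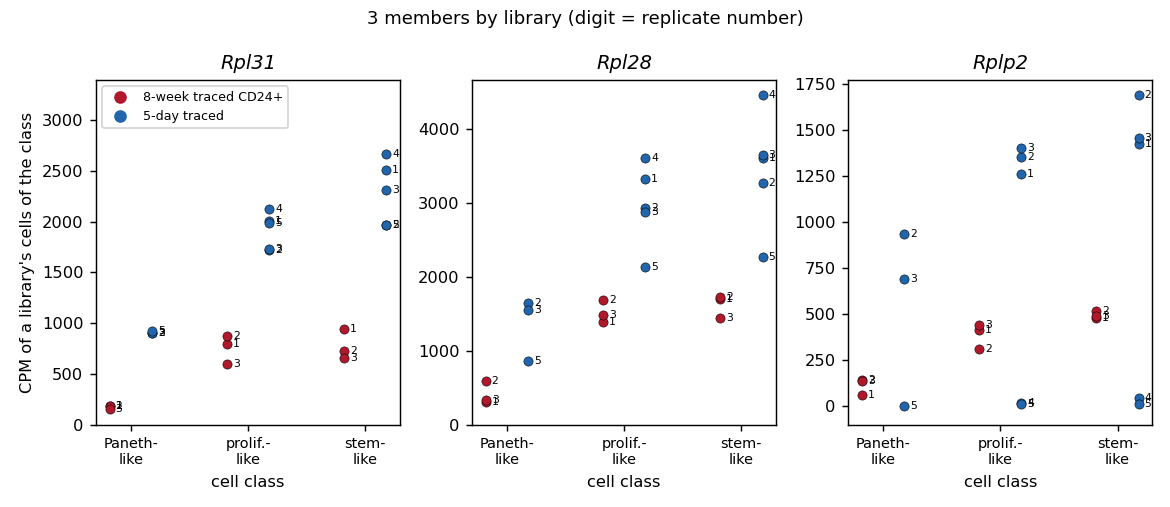
CPM (y axis) of Rpl31, Rpl28 and Rplp2 by library in Paneth-like, proliferating-like and stem-like cells (x axis), 8-week traced CD24+ left of 5-day traced; digits are replicate numbers. Rpl31 in stem-like cells is 657 to 945 CPM at 8 weeks and 1965 to 2663 CPM at 5 days, and 5-day replicates 4 and 5 have 45.9 and 10.9 CPM of Rplp2.

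In Paneth-like cells, 61 of 75 members were lower at 8 weeks and none higher, where 44.3% of 1131 genes passed the test, 21.2% as higher and 23.1% as lower. The median log2 change was -0.95 over members and -0.02 over all genes. Rpl31 had 188, 188 and 152 CPM at 8 weeks, against 905, 901 and 921 CPM in 5-day replicates 2, 3 and 5 (-2.17 ± 0.24, adjusted p = 7.77e-06). Rps26, a small-subunit protein at the exit of the messenger RNA, had 397, 420 and 448 CPM, against 1262, 1483 and 1650.3 CPM (-1.59 ± 0.23, adjusted p = 9.24e-05). Rpl28 had 302, 586 and 330.3 CPM, against 1643, 1556 and 864 CPM (-1.63 ± 0.28, adjusted p = 0.000438). Rpl22 had 243, 254 and 274 CPM, against 722, 974 and 864 CPM (-1.52 ± 0.24, adjusted p = 0.000175). None of these 4 genes overlapped between the groups. Rplp2 did overlap, with 58.8, 143.6 and 139.1 CPM at 8 weeks, against 936.5, 691.6 and 0 CPM at 5 days (-2.26 ± 0.59, adjusted p = 0.0058).

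Rpl41, Rps27l and Rpl36al did not pass this test. Rpl41 had 2192, 3624 and 3277 CPM in Paneth-like cells at 8 weeks, against 3135, 4022 and 4375 CPM at 5 days (-0.16 ± 0.24, adjusted p = 0.616). Rps27l had 537, 431 and 413 CPM, against 397, 428 and 480 CPM (0.31 ± 0.24, adjusted p = 0.31), and Rpl36al 360.4, 475 and 413 CPM, against 476, 400.4 and 441 CPM (0.10 ± 0.23, adjusted p = 0.764). Relative to the sum over the members these 3 were higher at 8 weeks, with values of 0.72, 1.24 and 1.00, and Rpl31 was lower, at -1.24. Rpl31 was also lower on that scale in stem-like (-1.32) and proliferating-like cells (-1.10), and Rpl28 had -0.85, -0.76 and -0.76 in stem-like, proliferating-like and Paneth-like cells.

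Different clusters held most Paneth-like cells of the 8-week and the 5-day libraries. Cluster 14 held 20 of 21 5-day Paneth-like cells and cluster 6 held 25 of 32 of the 8-week traced CD24+ cells. The median share of members per cell was 3.82% in cluster 6 at 8 weeks, and in cluster 14 it was 10.4% at 8 weeks (7 cells) and 11.8% at 5 days (20 cells). In cluster 14 alone, the library shares were 9.68% and 9.83% in 8-week replicates 1 and 3 (3 cells each), against 11.7%, 14.2% and 10.8% at 5 days. The fit over cluster 14 alone called 1 of 75 members, Rpl31 (-1.53, adjusted p = 0.0175), with a members' median of -0.36 and a median of 0.04 over all genes; it called 4.54% of 727 genes, from 2 libraries of 3 cells each at 8 weeks. The Paneth markers summed to 3747 to 4801 per 10000 at 8 weeks, against 3146 to 3577 at 5 days, goblet markers to 232 to 381, against 93.3 to 130, and markers of proliferation to 5.97 to 13.6, against 15.4 to 27.1; their part in the result was not tested.

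Whether the difference from stem-like cells was itself different at 8 weeks and at 5 days was tested as an interaction over 1407 genes, a test added after the data had been seen. For Paneth-like cells 5 of 76 members were lower and none higher, where 3.2% of all genes passed the test and 1.63% passed as lower. Among them were Rpl22 (-1.04 ± 0.24, adjusted p = 0.0175), Rps26 (-0.96 ± 0.23, adjusted p = 0.0181), Rpl10a (-0.81 ± 0.21, adjusted p = 0.0295) and Rpl27 (-0.78 ± 0.22, adjusted p = 0.0397). The members' median was -0.44 and that of all genes 0.04. The number of all genes with an unadjusted p under 0.05 in this test is not given here. Of the members 44 had one, 43 of them lower. The other, Rps27l, went the other way (1.02 ± 0.30) and just missed the threshold (adjusted p = 0.0509). Without the number over all genes, the counts of 44 and 43 are no result about the members. The stem-like cells of the 2 times lay mostly in different clusters, as given above. The count was 0 without 5-day replicate 2 or without 8-week replicate 1, 1 without 8-week replicate 3, 2 without 5-day replicate 5, 8 without 8-week replicate 2 and 21 without 5-day replicate 4. Of all genes, 0.159%, 1.42%, 1%, 2.01%, 3.82% and 5.32% passed in these fits, in the same order. DESeq2 called 23 members lower and 1 higher, with 5.4% of all genes passing. For goblet-like and proliferating-like cells edgeR and DESeq2 called 0 members, with 1 member each at an unadjusted p under 0.05 by edgeR, and 2 and 5 by DESeq2. The shares of all genes for these 2 classes are not given here, so their counts are no result about the members.

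At 8 weeks, traced CD24+ cells were also set against non-traced CD24+ cells of the same class. No member passed the test in Paneth-like, tuft-like or enteroendocrine-like cells, of 77 tested in each, by edgeR or by DESeq2. By edgeR 1.74% of 2814 genes passed in Paneth-like (0.533% as higher, 1.21% as lower), 0.0637% of 3138 in tuft-like (all as lower) and 0.162% of 3092 in enteroendocrine-like cells (0.129% as higher, 0.0323% as lower). In these classes 11, 2 and 0 members had an unadjusted p under 0.05. Of all genes tested, 321, 148 and 261 did, in the same order. In Paneth-like cells leaving out traced replicate 2 gave 2 called members (2.21% of all genes passing), and leaving out non-traced replicate 2 gave 1 (1.37%). The share of members in Paneth-like cells was 5.08%, 7.85% and 6.47% in traced cells, against 8.67% and 10.3% in non-traced cells, with no overlap. In tuft-like cells it was 11.4%, 12.1% and 11.8% in traced cells, against 12.3% and 12.4% in non-traced cells. In enteroendocrine-like cells the order was the other way, with 14.7%, 11.2% and 11.7% in traced cells, against 11.3% and 8.69% in non-traced cells, and those ranges overlapped. The names in the combined table mark traced replicates 2 and 3 and non-traced replicate 2 with II, a second round. Within rounds, the enteroendocrine-like share was 14.7% in traced, against 11.3% in non-traced cells of the first, and 11.2% and 11.7% in traced, against 8.69% in non-traced cells of the second, so traced cells were the higher in both. With the round as a block, edgeR called 2 members higher in enteroendocrine-like cells, Rps19 (0.93 ± 0.22, adjusted p = 0.0301) and Rpl39 (0.81 ± 0.21, adjusted p = 0.0447), where 2.26% of all genes passed. The same block called 1 member lower in Paneth-like cells, Rpl37 (-0.80 ± 0.24, adjusted p = 0.0427), where 2.95% of all genes passed, and 0 in tuft-like cells, where 0.0956% passed.

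The members' median log2 change was -0.28 in Paneth-like, -0.12 in tuft-like and 0.34 in enteroendocrine-like cells, against 0.04, 0.01 and 0.01 over all genes. In Paneth-like cells that direction depended on the cells taken: the members' median was 0.04 with clusters at resolution 2 and -0.01 among cells of at least 5000 transcripts, where in tuft-like cells it was 0.00. In enteroendocrine-like cells the members' median less that of all genes was 0.33, and leaving out 1 library moved it to 0.03 (non-traced replicate 2), 0.15 (traced replicate 1) or 0.66 (non-traced replicate 1). In Paneth-like cells Rpl34 had 25.7, 11 and 47.8 CPM in traced cells, against 58.2 and 75.8 CPM in cells without the trace (-0.76 ± 0.46, adjusted p = 0.563). In enteroendocrine-like cells Rpl27a had 4048, 2761 and 3385 CPM in traced cells, against 2651 and 1615 CPM in cells without the trace (0.67 ± 0.39, adjusted p = 0.717). Without a block neither difference can be told from the spread between libraries, though Rpl27a and Rpl34 did not overlap between the groups. Cluster 10 held 32 of 57 traced and 5 of 31 non-traced enteroendocrine-like cells, and cluster 5 the others. Beside these values, goblet markers summed to 232 to 381 per 10000 in traced and 439 to 496 in non-traced Paneth-like cells. Markers of proliferation summed to 20.1 to 37.9 in traced and 7.58 to 14.8 in non-traced enteroendocrine-like cells. Their part was not tested.

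Genes that act with the members, which took part in the clustering, were counted in the same fits. Their counts are to be read against the shares of all genes in these fits, which passed as lower in 18.2% in Paneth-like, 13.8% in goblet-like, 21.7% in tuft-like, 16.1% in enteroendocrine-like and 20.7% in enterocyte-like cells. Of 4 other ribosomal or ribosome-linked genes, among them Rpsa, Fau and Gnb2l1, 4 fell in Paneth-like and goblet-like cells, 3 in tuft-like, enteroendocrine-like and enterocyte-like cells, and 0 in proliferating-like cells. Of 13 genes of ribosome assembly, 5 fell in Paneth-like (median -0.50), 3 in goblet-like (-0.37), 7 in tuft-like (-0.82), 7 in enteroendocrine-like (-0.76) and 12 in enterocyte-like cells (-1.78), and none rose. Npm1 and Ncl, both in the assembly list, were among the leading genes of stem-like cluster 4. The counts of assembly genes against stem-like cells are therefore not independent of how the stem-like cells were called. Among them Fbl, which methylates ribosomal RNA, fell by 2.25 in tuft-like cells, and Gar1, part of the complexes that make pseudouridine, fell by 2.74 in enterocyte-like cells. Of 33 translation factors, 18 fell and 1 rose in enterocyte-like cells, 11 fell in tuft-like, 7 in goblet-like and 0 in proliferating-like cells, 6 fell and 2 rose in enteroendocrine-like cells, and 3 fell and 4 rose in Paneth-like cells. Eif3a (0.75), Eif5b (0.61), Eif1 (0.61) and Eif5 (0.49), all initiation factors, were those that rose in Paneth-like cells with TMM; they were not recomputed without it, where the median of all genes lay at -1.05. Pabpc1, which binds poly(A) tails, fell in tuft-like (-1.53), enteroendocrine-like (-1.21) and enterocyte-like cells (-1.38). Of 21 mitochondrial ribosomal protein genes, 4 fell in Paneth-like, 2 in goblet-like and tuft-like cells, 2 fell and 1 rose in enteroendocrine-like cells, 1 rose in enterocyte-like cells and 0 passed in proliferating-like cells; the highest of these shares, 19% in Paneth-like cells, is near that of all genes. Larp1, named above, was the 1 growth regulator tested, and fell in tuft-like (-0.96), enteroendocrine-like (-0.79) and enterocyte-like cells (-0.94).

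Between 8 weeks and 5 days, 3 of the 4 other ribosomal genes were lower at 8 weeks in each of the 3 classes. Of the assembly genes, none of 28 passed in stem-like cells, 3 of 38 (7.89%) were higher in proliferating-like cells, near the 7.65% of all genes, and 3 of 9 (33.3%) were lower in Paneth-like cells (Npm1 -1.27, Ncl -0.90 and Fbl -0.89), where 23.1% of all genes were lower. The initiation factor Eif5b was higher at 8 weeks in stem-like (1.30), proliferating-like (1.52) and Paneth-like cells (2.50), while translation factors as a list were mixed, with 4 higher and 2 lower of 36 in stem-like, 4 and 6 of 37 in proliferating-like, and 3 and 10 of 29 in Paneth-like cells; of all genes, 6.92% were higher and 7.47% lower in stem-like, 7.65% and 7.33% in proliferating-like, and 21.2% and 23.1% in Paneth-like cells. Of the mitochondrial ribosomal protein genes, 3 of 50 were lower in stem-like cells, 4 of 76 lower and 1 higher in proliferating-like cells, and 0 of 3 passed in Paneth-like cells. Of 7 growth regulators tested in proliferating-like cells, 2 (28.6%) were higher at 8 weeks and 0 lower, where 7.65% of all genes were higher. These were Deptor, an inhibitor of mTOR, and Rps6kb1, a kinase of Rps6 (1.81 and 0.83). In stem-like cells 0 of 6 passed, and in Paneth-like cells 0 of 1. Between traced and non-traced cells at 8 weeks, edgeR called no gene of these lists.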

How the data were processed

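Transcript values were deposited in the form of expected counts: mm10 and BWA 0.6.2-r126 are listed, without their role, per the submitters' processing notes, and by their values the deposited tables hold molecule counts corrected for barcode collisions, with no scaling by depth. The counting, filters and gene models are not given in the sources used here. They were rounded to whole numbers. The members and gene lists were chosen with earlier results of these data known.

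Cells with at least 3000 transcripts were clustered (scanpy 1.11.5, Leiden, 2000 variable genes, 30 components, 10 neighbours, resolution 1) on a random 0.5 share of each count, with the members and 195 pseudogenes by GENCODE left out; Gm6525 and Gm6402, pseudogenes in RefSeq only, took part. A cluster was named from at least 3 markers raised by 0.25 on the log2 scale and at least 1 among its 10 leading genes. The class with most markers among the leading genes gave the name, and a tie left the cluster unnamed. A cluster with 1 such marker stayed unnamed where at least a 0.5 share of another class's markers was raised. So did a cluster of which over 85% was 1 library. These naming rules were set after seeing the data. No doublet caller was run. The rest of the counts was summed per library and class of at least 3 cells, and tested with edgeR 4.0.16 (R 4.3.3; TMM, filterByExpr, quasi-likelihood, library as block). Comparisons between groups used all counts, without a block. CPM were computed from these sums. Precision follows from the number of libraries and cells. The tests of 2 comparisons were tried on simulated counts, with the same spread set for all genes. For Paneth-like against stem-like cells, 47% of log2 changes of 1 and 84% of changes of 2 were recovered. For stem-like cells at 8 weeks against 5 days, 18% and 84% were recovered. The tests of traced against non-traced cells were not simulated.

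Genes named were members with the 10 largest rises or falls past the test, copies with their partners, and the 5 highest and lowest members; of other lists at most 5 called genes per comparison. Rps3a1, Rpl41, Rpl36al, Rps27l and Rplp2 where not called, and Rplp2 in proliferating-like cells, were named after their values were seen. Some genes that the rule would name are not reported here. Alternatives were DESeq2 1.42.0, other filters, cell minimums, resolutions and scalings, and leaving out libraries. The fits without TMM factors, with Paneth-like cells of 1 cluster and of the interaction were added after seeing the data.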

Additional observations from a re-analysis of the deposited data

Results flagged for a closer look

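In 3 of 48 sets of 4 or 5 libraries checked, 1 library lay far from the others, where chance marks about 1 set in 20. All were 5-day replicate 2. Rpl3 had 2188 CPM in its enterocyte-like cells, against 1420 to 1505 CPM in the other 3 libraries, and Rps15a had 628 CPM, against 244 to 295 CPM. Rpl22 had 1367 CPM in its stem-like cells, against 1749 to 1797 CPM in the other 4 libraries.

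The difference between Paneth-like and stem-like cells was itself lower at 8 weeks than at 5 days by a test of the interaction for the 4 members given here. The log2 values were -1.04 for Rpl22, -0.96 for Rps26, -0.81 for Rpl10a and -0.78 for Rpl27. The test was added after the data had been seen, and leaving out 1 library gave 0 to 21 called members.

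Symbols with -ps, which the rule leaves out, held up to 0.702% of transcripts, in 5-day replicate 4.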

How the results depend on the processing

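Of 285 checks on counts and shares, 225 stayed within 1.5 times the value given or within the spread of the libraries, and 60 did not; for single genes 1132 kept call and direction, 53 lost the call, 61 gained it and 12 changed sign. The cause was not tested except where the scaling itself sets it. Where no share of all genes is given for a fit, here or above, its count is not a result about the members. With the sum over the members as library size, which removes a change common to them, the counts against stem-like cells were 10 in Paneth-like, 10 in enterocyte-like, 4 in goblet-like, 16 in tuft-like, 13 in enteroendocrine-like and 0 in proliferating-like cells, 13 (stem-like), 14 (proliferating-like) and 10 (Paneth-like) for 8 weeks against 5 days, and 3 for the interaction. On that scale Rpl41 turned to 0.28 in goblet-like, 0.25 in tuft-like and 0.72 in Paneth-like cells at 8 weeks against 5 days, Rps27l to 0.26 and Rpl36al to 0.28 in tuft-like, Rpl36al to 0.62 in enteroendocrine-like and 0.62 in enterocyte-like, and Rpl10 to 0.50 in enteroendocrine-like cells. Without TMM factors, Rps27l turned to -0.0555, Rpl41 to -0.93, Rpl36al to -0.76 and Rpl10 to -0.92 in Paneth-like cells; the counts were 0 in proliferating-like cells, 1 in traced against non-traced Paneth-like cells, 21 in proliferating-like cells at 8 weeks against 5 days, and 70 for the interaction, where the median of all genes moved to -0.51. That median also moved by over 0.1 to -0.23 in both other comparisons of Paneth-like cells and to -0.06 in enteroendocrine-like cells.

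Against stem-like cells, DESeq2 called 22 members in Paneth-like and 10 in proliferating-like cells, and 20 in proliferating-like cells at 8 weeks against 5 days; for the interaction it called 24. The 5-day libraries alone gave 0 in Paneth-like and 23 in goblet-like cells, and the 8-week CD24+ libraries alone gave 38 in Paneth-like, 5 in goblet-like and 0 in proliferating-like cells. With no filter the counts were 6 (goblet-like) and 0 (proliferating-like). Among cells of at least 5000 transcripts they were 27 (goblet-like) and 1 (proliferating-like), with at least 1500 transcripts 1 (proliferating-like), and with all counts 1 (proliferating-like). Paneth-like cells of 1 cluster gave 1 at 8 weeks against 5 days, and library sizes without the members gave 39 for the interaction. The share difference was -9.33 points in Paneth-like cells with their marker genes left out, and -18.3 points in enterocyte-like cells of at least 5000 transcripts.

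Leaving out each library in turn gave counts of 30 to 61 (Paneth-like; 30, 32, 34 and 36 without 8-week traced CD24+ replicate 3, 5-day replicate 5, 5-day replicate 3 and 8-week traced CD24+ replicate 1), 38 to 66 (goblet-like; 38 and 39 without 5-day replicates 5 and 3), 72 to 75 (enterocyte-like), 75 to 76 (tuft-like), 70 to 74 (enteroendocrine-like) and 0 to 2 (proliferating-like). For 8 weeks against 5 days they were 14 to 31 in stem-like and 18 to 36 in proliferating-like cells, lowest in both without 8-week replicate 2, and 43 to 61 in Paneth-like cells. For traced against non-traced cells they were 0 to 2 in Paneth-like, 0 to 0 in tuft-like and 0 to 0 in enteroendocrine-like cells. For the interaction they were 0 to 21. Shares of all genes are given above for some of these fits only. The ranges thus show how the counts moved, not how the members stood against other genes.

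Nothing in the labels says that replicate numbers pair the samples. Deviations of same-numbered libraries correlated at 0.0811 and 0.0738 in Paneth-like, 0.177 and 0.111 in tuft-like and 0.337 and 0.281 in enteroendocrine-like cells for traced against non-traced, all above 0 but over 2 pairs, in which the number and the round coincide, so the pairing was not settled there. They correlated at -0.0295 to 0.0528 between 8 weeks and 5 days. A replicate block gave 6 members, all higher, in enteroendocrine-like cells and 0 in Paneth-like and tuft-like cells. For 8 weeks against 5 days it gave 40, 30 and 50 in stem-like, proliferating-like and Paneth-like cells. The shares of all genes passing with this block are not given here, so these counts are no result about the members. The round of the 8-week libraries, read from the mark II in the combined table's names, as a block gave 1 in Paneth-like and 2 in enteroendocrine-like cells. Depth limits low members, since 9 could not be tested between classes.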
